A study of Homo sapiens with 4 samples.

Results

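Messenger RNA was measured for 38 lysosomal genes among the 55536 genes of the deposited table, in HaCaT, an established human keratinocyte line. The genes were taken by name: soluble hydrolases and their activators, membrane proteins of the lysosome, the cholesterol exporters NPC1 and NPC2, and TFEB, a transcription factor of lysosomal genes. All 38 names matched exactly 1 row, and all 38 passed the filter on low counts. There were 2 libraries of cells labelled NC and 2 of cells given a lentivirus to overexpress TYMP, which encodes thymidine phosphorylase. NC is not spelt out in the labels, which name neither the promoter of the vector nor whether a line was 1 clone or a pool. RNA was taken after 48 hours in both groups. The question for these genes was whether a higher level of ARSA, which lies near TYMP on chromosome 22, was shared by other lysosomal genes.

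Lysosomal hydrolases are made in the endoplasmic reticulum, tagged with mannose 6-phosphate in the Golgi and delivered to an acidic compartment, where they take apart lipids, glycosaminoglycans, glycoproteins, glycogen and proteins. Loss of a single hydrolase gives a storage disease, as with ARSA in metachromatic leukodystrophy. In epidermis, cathepsins and lipid hydrolases also act in cornification and in making the lipid barrier. TFEB enters the nucleus when the kinase mTORC1 is inactive and binds E-boxes in the promoters of many lysosomal genes, an arrangement called the CLEAR network.

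Promoter sequences from RefSeq on GRCh38.p14 were matched for 29 of the 38 genes, each covering 250 bases before and 50 after the annotated start. The unmatched genes were ARSA, ASAH1, CTSB, HEXA, LAMP2, MANBA, NAGLU, PSAP and SGSH. Promoters are shown for 3 of the genes called higher, CTSD, CTSH and GAA, and for MCOLN1, GALNS and LAMP1, which hold the TFEB motif or many E-boxes and were not called. Each is written 5′ to 3′ on the strand of the gene. Capitals mark the palindromic E-box CACGTG and, where it is complete, the longer palindrome GTCACGTGAC of the CLEAR element.
CTSD (chr11:1763878-1764177, minus strand): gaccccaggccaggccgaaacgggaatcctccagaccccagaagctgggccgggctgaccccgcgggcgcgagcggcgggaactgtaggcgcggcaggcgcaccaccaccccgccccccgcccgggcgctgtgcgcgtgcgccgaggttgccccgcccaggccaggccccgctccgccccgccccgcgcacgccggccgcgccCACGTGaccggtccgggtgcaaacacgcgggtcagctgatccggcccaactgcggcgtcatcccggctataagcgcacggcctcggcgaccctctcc
CTSH (chr15:78944997-78945296, minus strand): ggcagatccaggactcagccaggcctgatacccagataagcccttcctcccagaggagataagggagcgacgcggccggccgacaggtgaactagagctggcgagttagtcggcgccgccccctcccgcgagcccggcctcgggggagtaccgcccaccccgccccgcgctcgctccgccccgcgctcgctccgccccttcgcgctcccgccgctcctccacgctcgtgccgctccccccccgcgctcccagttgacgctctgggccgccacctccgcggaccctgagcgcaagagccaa
GAA (chr17:80101331-80101630, plus strand): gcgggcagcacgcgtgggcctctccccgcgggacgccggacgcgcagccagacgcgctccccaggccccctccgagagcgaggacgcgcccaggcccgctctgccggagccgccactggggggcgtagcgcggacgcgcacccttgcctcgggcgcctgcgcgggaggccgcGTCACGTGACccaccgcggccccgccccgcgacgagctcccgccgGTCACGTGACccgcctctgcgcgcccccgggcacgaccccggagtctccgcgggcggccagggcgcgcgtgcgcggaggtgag
MCOLN1 (chr19:7522374-7522673, plus strand): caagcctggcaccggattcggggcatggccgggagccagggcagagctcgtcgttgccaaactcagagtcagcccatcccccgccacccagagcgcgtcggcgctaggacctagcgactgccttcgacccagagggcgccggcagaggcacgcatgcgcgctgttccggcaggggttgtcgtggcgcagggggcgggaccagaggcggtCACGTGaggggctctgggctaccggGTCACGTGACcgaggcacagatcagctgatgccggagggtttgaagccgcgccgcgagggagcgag
GALNS (chr16:88856898-88857197, minus strand): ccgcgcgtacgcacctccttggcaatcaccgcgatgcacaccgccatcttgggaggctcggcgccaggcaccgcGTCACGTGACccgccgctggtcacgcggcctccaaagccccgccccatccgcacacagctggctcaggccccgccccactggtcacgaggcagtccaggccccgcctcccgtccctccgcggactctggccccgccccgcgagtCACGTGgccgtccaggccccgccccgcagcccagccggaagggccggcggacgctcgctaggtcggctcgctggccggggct
LAMP1 (chr13:113296989-113297288, plus strand): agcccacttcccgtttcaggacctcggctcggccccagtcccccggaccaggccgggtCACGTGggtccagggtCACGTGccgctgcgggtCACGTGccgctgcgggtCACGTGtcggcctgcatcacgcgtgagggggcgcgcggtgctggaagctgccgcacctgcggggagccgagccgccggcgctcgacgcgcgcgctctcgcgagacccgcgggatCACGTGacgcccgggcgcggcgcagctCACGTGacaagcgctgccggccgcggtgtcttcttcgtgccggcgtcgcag

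CACGTG was found in 6 of the 29 promoters (20.7%), against 7.26% of all 35116 promoters in the RefSeq table and 9.90% of the 10442 whose gene was tested. GTCACGTGAC was found in 3 of 29 (10.3%), those of GAA, GALNS and MCOLN1, against 0.353% and 0.785%. Each motif reads the same on both strands, and every GTCACGTGAC contains a CACGTG. The LAMP1 promoter held 6 copies of CACGTG, and those of GAA, MCOLN1, GALNS and CTSA held 2 each. The CTSD promoter held 1 copy, and the CTSH promoter held none. A match describes the letters and does not show binding.

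Total counts per library lay between 16209663 and 17000821. Mitochondrially encoded genes took 4.25% and 4.24% of NC counts and 5.09% and 4.46% of TYMP counts. TYMP, the overexpressed gene, had 281 and 264 reads against 1221 and 1100, so it was higher in both libraries named for it. All 7 keratinocyte markers were present, and 3 of them rose: KRT5 by 1.45-fold, KRT14 by 1.28-fold and DSG3 by 1.37-fold (edgeR adjusted p = 0.00200, 0.0231 and 0.00483). Their part in the results on lysosomal genes was not tested. Markers of other cell types were low, and none of the 7 that could be tested was called. Summed over each list they came to 4.29 to 5.3 CPM in NC and 6.54 to 8.88 in TYMP for 6 fibroblast genes, 2.98 to 5.19 CPM in NC and 5.77 to 7.2 in TYMP for 7 myeloid genes, 1.43 to 2.6 CPM in NC and 2.92 to 3.18 in TYMP for 4 melanocyte genes and 2.54 to 3.81 CPM in NC and 2.89 to 3.29 in TYMP for 4 endothelial genes. COL3A1 and PDGFRA of fibroblasts, AIF1 and TYROBP of myeloid cells and TYR of melanocytes had 0 reads in every library, while COL1A1 had 86 and 71 reads against 138 and 103. Of the 7 myeloid genes, 2 have a copy outside the primary assembly. Whether their reads were lost in alignment or counting was not tested. The sums for fibroblast, myeloid and melanocyte markers were higher in both TYMP libraries, and their part in the results was not tested. In RNA from a whole culture, fewer cells with a gene on and less RNA per cell cannot be told apart.

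Levels of different genes are given as FPKM, reads per kilobase of gene length, scaled to the library's counted total, from the authors' columns. The mean FPKM over the 4 libraries ran from 0.169 for GAA to 238 for PSAP, with a median of 6.71 over the 38 genes. There were 4 genes at 50 FPKM or above, 16 at 10 or above and 5 under 1. PSAP encodes prosaposin, the precursor of the saposins that present sphingolipids to hydrolases. With NC it stood at 228 and 208 FPKM, with TYMP at 264 and 251. PSAP alone made up between 30.0% and 33.3% of the summed FPKM of the 38 genes. LAMP1, a heavily glycosylated protein that lines the lysosomal membrane, followed with a mean of 82.2 FPKM, then the acid lipase gene LIPA with 64.9 and the palmitoyl thioesterase gene PPT1 with 52.1. ARSA stood in the lower part of the order with a mean of 2.46 FPKM. The 5 genes under 1 FPKM were IDS, HEXA, GALC, IDUA and GAA.

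**Figure D1:**
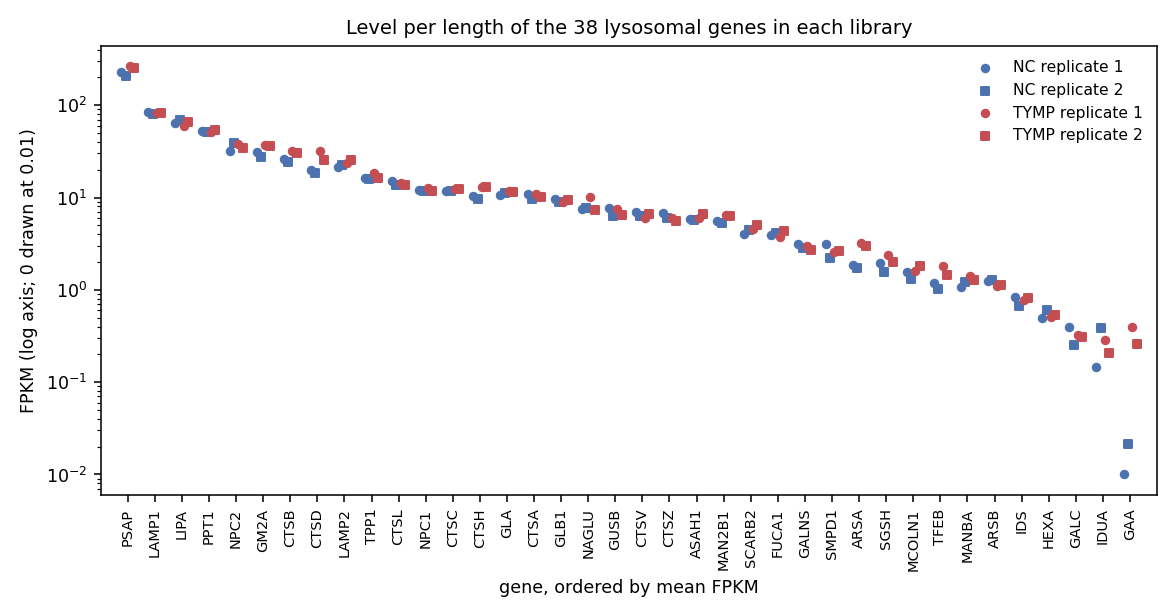
FPKM (log axis) of each of the 38 lysosomal genes in each of the 4 libraries, in order of the mean; circles are replicate 1, squares replicate 2, and a value of 0 is drawn at 0.01. The order runs from PSAP (mean 238) to GAA (mean 0.169), and ARSA, TFEB, CTSD and GAA are among the genes whose 2 TYMP libraries lie above both NC libraries.

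Levels per length depend on the gene model. The authors' gene lengths exceeded the exon bases of GENCODE 29 by more than 1.5 times for 9 of the 38 genes and were within 5% of them for 21. The extreme case was CTSZ, at 19384 bases against 2038, whose mean FPKM would be 58.2 in place of 6.11 with the shorter length, moving it into the 4 highest. For GLA, CTSL, CTSC and CTSH the authors' lengths were 2.72, 2.58, 2.18 and 2.33 times those of GENCODE 29. For LAMP2, CTSD, CTSV and ARSA they were 1.92, 1.82, 1.56 and 1.535 times. The mean for ARSA would be 3.78 FPKM with the shorter length. Which length is nearer to the transcripts in these cells was not tested. PPT1 went the other way, with a mean of 34.6 in place of 52.1 FPKM, which moves it from rank 4 to rank 9. Of its exon bases, 23.4% lie opposite a protein-coding gene with between 6239 and 7539 reads. A difference between groups for 1 gene is not touched by its length.

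Of the 38 genes, 4 were called higher in the TYMP libraries and 0 lower by edgeR's quasi-likelihood test at an adjusted p under 0.05: GAA, ARSA, CTSD and CTSH. Over all 14380 genes tested, 2.09% were called higher and 1.23% lower, 3.32% in all. At an unadjusted p under 0.05 there were 8 of the 38, all higher, where 14.7% of all genes passed. DESeq2 and limma-voom also called 0 of the 38 lower. The median log2 fold change was 0.07 over the 38 genes and -0.01 over all tested genes. Most lysosomal genes differed little: for 25 of the 38 the log2 fold change lay within 0.2 of 0. Both TYMP libraries lay above both NC libraries for 16 genes (42.1%) and below them for 3 (7.89%), where 21.8% of all tested genes lay above and 21.8% below, 43.6% in all. For the other 19 the groups overlapped. These counts include ARSA, listed with its change already known, and GAA, which passed the filter on low counts only through the TYMP libraries. With both left out, 2 of 36 genes were called higher, 14 lay above and 3 below. The median log2 fold change was then 0.05.
The count of calls rested on single libraries. It fell from 4 to 1, GAA alone, without TYMP replicate 1. It rose to 6 without NC replicate 1, when CTSB and GM2A were called too. With 1 library left in a group, its spread is taken to be that of the other group. With limma on FPKM none of the 33 genes that passed its filter was called.

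**Figure D2:**
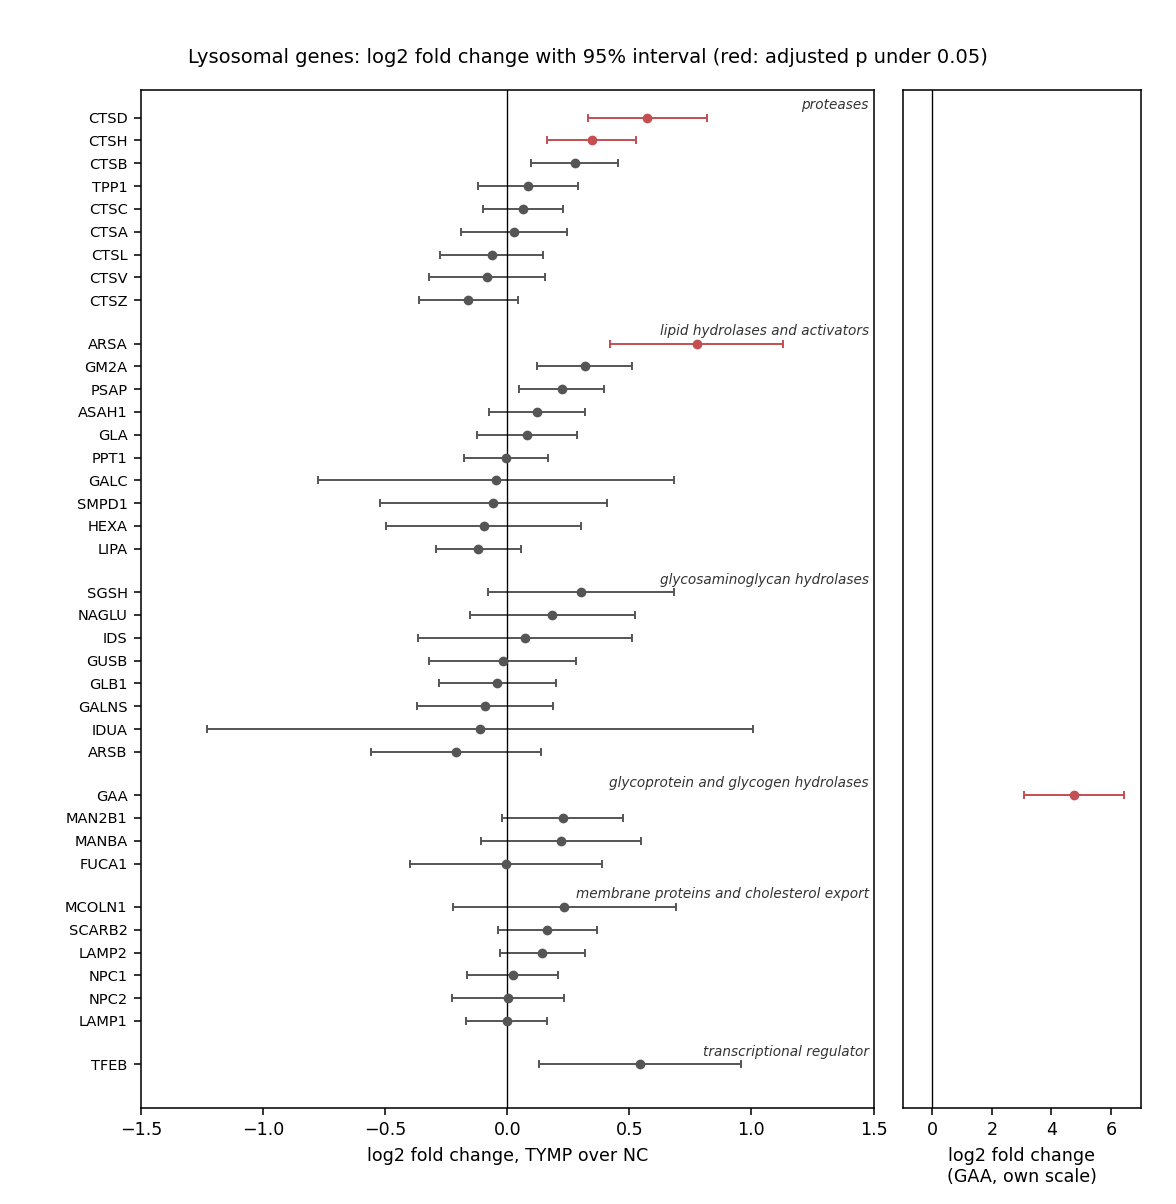
Log2 fold change, TYMP over NC, with its 95% interval for the 38 genes, grouped by role; red marks the 4 genes at an adjusted p under 0.05, and GAA has an axis of its own. Apart from GAA, the points run from -0.21 for ARSB to 0.78 for ARSA, and most intervals cross 0.

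Among the 9 protease genes, CTSD and CTSH rose, 7 were not called, and the median log2 fold change was 0.06. CTSD encodes cathepsin D, the main aspartic protease of the lysosome. It had 115 and 105 CPM (depth-normalised counts, scaled by TMM) with NC, against 184 and 143 with TYMP. The groups did not overlap, and TYMP replicate 1 was the highest. CTSD rose 1.49-fold; NC averaged 110 ± 7.34 and TYMP 164 ± 29.02 CPM (SD over 2 libraries each; log2 fold change 0.57 ± 0.112 SE, edgeR adjusted p = 0.0129). Leaving out TYMP replicate 1 ended the call (log2 fold change 0.39, adjusted p = 0.126). Of its exon bases, 41.7% are also annotated to another protein-coding gene on the same strand that had between 3 and 10 reads, and how shared reads were assigned is not stated.

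CTSH encodes cathepsin H, an aminopeptidase of the papain family. NC libraries stood at 146 and 134 CPM, TYMP libraries at 181 and 174, without overlap. It rose 1.27-fold; the SD was 8.26 CPM with NC and 4.88 with TYMP (2 libraries each; log2 fold change 0.35 ± 0.0843 SE, edgeR adjusted p = 0.0426). Its log2 fold change was 0.28, 0.32 and 0.37 when NC replicate 2, TYMP replicate 1 and TYMP replicate 2 were left out in turn, and each time the call was lost (edgeR adjusted p = 0.134, 0.269 and 0.143).

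CTSB encodes cathepsin B, a cysteine protease. It had 282 and 258 CPM against 338 and 314, without overlap, and was not called (log2 fold change 0.28 ± 0.0831 SE, edgeR adjusted p = 0.111), but was called without NC replicate 1 (adjusted p = 0.0247). The ratio of CTSD to CTSB in FPKM was 0.756 and 0.753 with NC, 1.01 and 0.843 with TYMP. CTSC, an activator of granule serine proteases, was at 293 and 293 CPM against 307.5 and 305. TPP1 and CTSA, a tripeptidyl peptidase and a serine carboxypeptidase, had log2 fold changes of 0.09 and 0.03.

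CTSL and CTSV are close relatives, and cathepsin V is the form found in few human tissues, epidermis among them. CTSL had 94.4 and 83.0 CPM against 87.4 and 82.3, and CTSV had 51.1 and 46.3 against 44.6 and 47.4. In both genes the groups overlapped (edgeR adjusted p = 0.839 and 0.809). Per length, CTSL stood between 2.08 and 2.35 times above CTSV in every library with the authors' lengths. With GENCODE 29 exon lengths the mean levels would be 36.6 and 10.05 FPKM, which is further apart. Reads that match both genes could have been split between them. CTSZ, a carboxypeptidase, was lower in both TYMP libraries, at 117 and 107 CPM against 133 and 117, and was not called (edgeR adjusted p = 0.486).

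**Figure D3:**
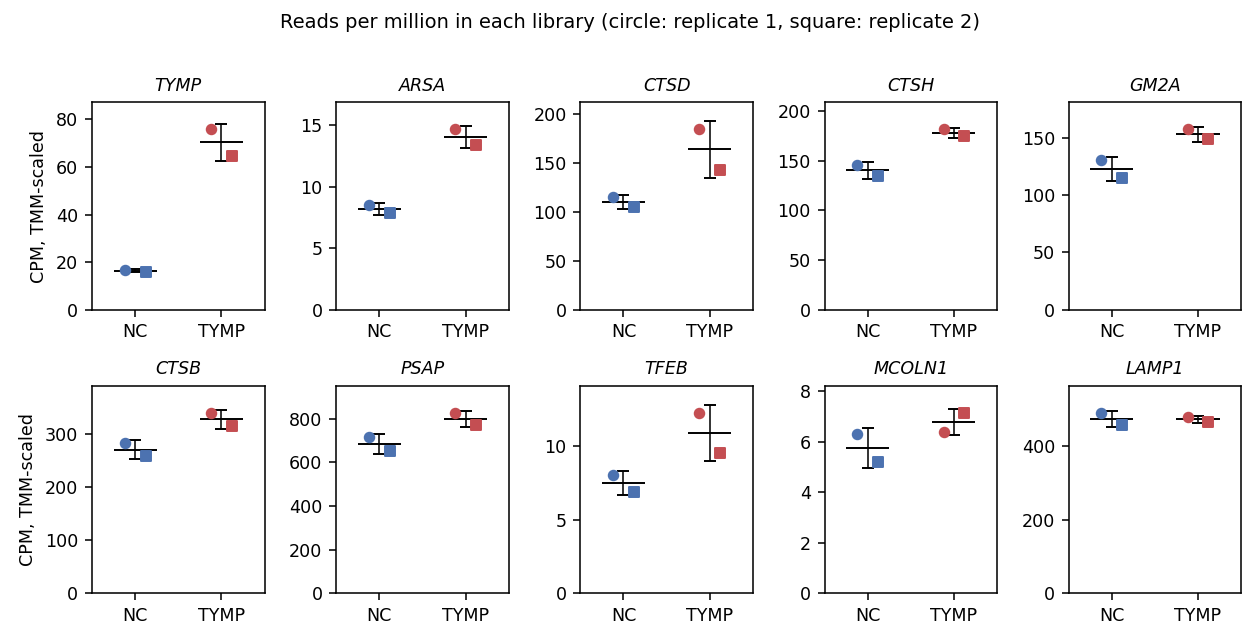
TMM-scaled CPM of TYMP and 9 lysosomal genes in each library, circles for replicate 1 and squares for replicate 2, with the group mean and SD (n = 2) in black. ARSA, CTSD and CTSH separate the groups with a call, GM2A, CTSB, PSAP, TFEB and MCOLN1 separate them without one, and LAMP1 does not separate them.

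Among the 10 genes of lipid breakdown, ARSA rose and 9 were not called, with a median log2 fold change of 0.04. ARSA encodes arylsulfatase A, which removes the sulfate of sulfatides, and its gene spans chr22:50622754-50628173 of GRCh38, minus strand. Its reads numbered 143 and 130 with NC, 236 and 227 with TYMP, or 8.51 and 7.85 against 14.7 and 13.4 CPM. Both TYMP libraries were well above both NC libraries, and the spread within each group was small. ARSA was at 8.18 ± 0.467 CPM in NC and 14.01 ± 0.903 in TYMP (SD over 2 libraries each; log2 fold change 0.78 ± 0.164 SE, 95% interval 0.42 to 1.13, edgeR adjusted p = 0.0198). DESeq2 and limma-voom called it too (adjusted p = 0.0262 and 0.0217). The call ended when TYMP replicate 1 was left out (log2 fold change 0.71, adjusted p = 0.0903) and on FPKM (0.0575 with a pseudocount of 1). No annotated exon of another gene overlapped it.

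The estimated change of ARSA was larger than that of nearly all the others. For every 10000 reads of the other 37 genes, ARSA had 21.0 and 20.2 with NC, 33.3 and 31.7 with TYMP. Without ARSA, 3 of the 37 were called higher and the median log2 fold change was 0.06. For 33 of the 37, the upper end of the 95% interval lay below the estimate for ARSA. The remaining 4 were GAA, CTSD, TFEB and IDUA, the last with an interval from -1.23 to 1.01 on 10 to 26 reads. This comparison leaves out the interval of ARSA itself, 0.42 to 1.13. Its lower end lay below the upper end for further genes, among them CTSB (0.46), GM2A (0.51) and CTSH (0.53). The difference between ARSA and each other gene was not tested.

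PSAP and GM2A encode activator proteins that lift lipids out of membranes for the hydrolases. GM2A had 131 and 115 CPM against 158 and 149 (log2 fold change 0.32 ± 0.0902 SE, edgeR adjusted p = 0.0876). It was called without NC replicate 1 (adjusted p = 0.00782) and with no filter on low counts (0.0386). PSAP had 718 and 652 CPM against 826 and 772 (log2 fold change 0.22 ± 0.0802 SE, edgeR adjusted p = 0.194). Neither gene overlapped between the groups. The acid ceramidase gene ASAH1 and the alpha-galactosidase gene GLA had log2 fold changes of 0.12 and 0.08, also without overlap. LIPA was lower in both TYMP libraries, at 295 and 314 against 319 and 343 CPM (edgeR adjusted p = 0.566). GALC, HEXA and SMPD1, whose loss gives Krabbe, Tay-Sachs and Niemann-Pick disease, had between 28 and 159 reads in every library, and log2 fold changes of -0.05, -0.10 and -0.06 in that order. GALC had 45 and 28 reads against 35 and 35. PPT1 was at 176 ± 2.97 and 176 ± 1.99 CPM (SD over 2 libraries each). Changes of the size seen for CTSD could not be told from no change in GALC, whose 95% interval ran from -0.78 to 0.68.

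None of the 8 glycosaminoglycan hydrolases was called by edgeR in either direction, and their median log2 fold change was -0.03. At an unadjusted p under 0.05 the count was also 0. ARSB, the sulfatase of dermatan sulfate and the relative of ARSA in this group, was lower in both TYMP libraries, at 9.81 and 9.84 against 11.4 and 11.4 CPM (log2 fold change -0.21 ± 0.161 SE, edgeR adjusted p = 0.623). The other sulfatases GALNS, IDS and SGSH had log2 fold changes of -0.09, 0.07 and 0.30, with overlapping groups. SUMF1, the enzyme that activates all sulfatases, was at 13.6 ± 0.749 and 14.8 ± 1.02 CPM (SD over 2 libraries each; edgeR adjusted p = 0.797). The beta-galactosidase gene GLB1 and the beta-glucuronidase gene GUSB had log2 fold changes of -0.04 and -0.02. NAGLU, which acts on heparan sulfate, had 22.3 and 22.9 CPM against 30.0 and 21.4, with TYMP replicate 1 alone above the rest (log2 fold change 0.18, edgeR adjusted p = 0.663). IDUA, the iduronidase, had 10 and 26 reads against 19 and 14.

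Of the 4 genes of glycoprotein and glycogen breakdown, GAA was called and 3 were not. The alpha-mannosidase gene MAN2B1 and the beta-mannosidase gene MANBA had log2 fold changes of 0.23 and 0.22 with groups that did not overlap, and the fucosidase gene FUCA1 had -0.01. GAA encodes the acid alpha-glucosidase that breaks down glycogen and is missing in Pompe disease. Its reads numbered 0 and 2 with NC, 36 and 24 with TYMP. Summed over libraries and scaled by depth, the ratio was 30.6, with an exact 95% interval of 8.12 to 259 that covers counting error only (edgeR adjusted p = 0.00379). GAA passed the filter on low counts only through the TYMP libraries, so a gene kept in this way had to differ, and its call adds no support to the count of 4. Its fitted log2 fold change, which depends on the prior count, ran from 3.83 without NC replicate 1 to 7.92 without NC replicate 2. DESeq2 gave GAA no adjusted p, and it had too few reads for the filters of 5 CPM and of 1 FPKM.

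EIF4A3, the nearest tested gene to GAA, on chromosome 17, was uneven within a group. GAA lies between 80101556 and 80119879 on GRCh38, and EIF4A3 between 80135214 and 80147183. EIF4A3 encodes a core component of the exon junction complex and had 68 and 722 reads with NC, 36 and 45 with TYMP. CCDC40 and CARD14, on either side of this pair, had at most 3 reads in any library. Further out, TBC1D16 had between 778 and 975 reads and SGSH, another of the 38 genes, between 172 and 260. RNF213, a ubiquitin ligase gene, was called higher, with 7804 and 7610 reads against 10934 and 10764 (log2 fold change 0.51, edgeR adjusted p = 0.00207). The part of this unevenness in the GAA result was not tested. Without GAA, 3 of 37 genes were called higher and the median log2 fold change was 0.06.

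None of the 6 membrane and cholesterol-export genes was called by edgeR, with a median log2 fold change of 0.08, and 0 passed an unadjusted p under 0.05. LAMP1 was at 473 ± 22.6 and 472 ± 9.16 CPM (SD over 2 libraries each), and its log2 fold change was 0.00, 95% interval -0.17 to 0.16. LAMP2 and SCARB2, the carrier of beta-glucocerebrosidase to the lysosome, were higher in both TYMP libraries by 0.14 and 0.16 on the log2 scale. NPC1 and NPC2, which pass cholesterol out of the lysosome, differed by 0.02 and 0.00. MCOLN1, the lysosomal calcium channel that acts upstream of TFEB, had 6.31 and 5.19 CPM against 6.39 and 7.13 (log2 fold change 0.23 ± 0.211 SE, edgeR adjusted p = 0.688). Its groups did not overlap, but TYMP replicate 1 lay close to NC replicate 1.

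TFEB itself had 135 and 114 reads with NC, 197 and 162 with TYMP, or 8.03 and 6.88 against 12.2 and 9.54 CPM. Both TYMP libraries were higher, with TYMP replicate 1 the highest. The log2 fold change was 0.54 ± 0.191 SE and did not pass the threshold (edgeR adjusted p = 0.182). The mRNA level does not show where the protein is in the cell.
Genes with the E-box ran from GAA, at rank 1 of the 38 in log2 fold change, to GALNS, at rank 33. The 6 with a CACGTG in the promoter had a median log2 fold change of 0.13, against 0.00 for the other 23 with a matched promoter. Of these 6, GAA passed the filter on low counts only through the TYMP libraries, so the median of 0.13 includes a gene that had to differ. The others had log2 fold changes of 0.57 (CTSD), 0.23 (MCOLN1), 0.03 (CTSA), -0.003 (LAMP1) and -0.09 (GALNS), with CTSA in the middle. The 3 with GTCACGTGAC, shown above, were GAA, MCOLN1 and GALNS, with GALNS lower by 0.09 on the log2 scale. LAMP1, with 6 E-boxes, did not separate the groups.

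The genes near TYMP held calls on both sides of it. ARSA lies beyond TYMP towards the telomere, with a gap of 92.7 kb between the 2 genes. The table held 10 genes wholly between them, of which 2 had enough reads to test and 0 were called by edgeR at an adjusted p under 0.05: KLHDC7B (log2 fold change 0.33, adjusted p = 0.573) and CHKB-DT (0.23, adjusted p = 0.752). The other 8 had at most 13 reads in any library, too few to test. Among them CHKB had 3 and 3 reads against 8 and 7, and a long noncoding RNA gene had 0 and 1 against 10 and 8. CIMAP1B, which overlaps TYMP and extends past it towards ARSA, was called higher (log2 fold change 0.99, adjusted p = 0.0352). SHANK3, the next protein-coding gene of the list beyond ARSA, had 0, 3, 1 and 23 reads and also has a copy outside the primary assembly. RABL2B, the farthest tested gene on that side, had a log2 fold change of -0.12 (adjusted p = 0.735).
Of the 13 tested neighbours other than TYMP and ARSA, CIMAP1B was called higher, ADM2 lower and 11 were not called, with a median log2 fold change of 0.18. The log2 fold change was above 0 in 10 of the 13, against 49.05% of all tested genes. CIMAP1B shares exon bases with TYMP. Both calls were lost without NC replicate 2 (adjusted p = 0.124 and 0.0888), without TYMP replicate 1 (0.0889 and 0.1245) and with DESeq2 (0.0683 and 0.0944). The log2 fold changes in these fits ran from 0.79 to 0.99 for CIMAP1B and from -1.44 to -1.26 for ADM2. With limma on FPKM, CIMAP1B was not called either (adjusted p = 0.0514 with a pseudocount of 1, 0.0572 with 0.1). ADM2, with a mean of 0.52 FPKM, did not pass the filter of that run.

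**Figure D4:**
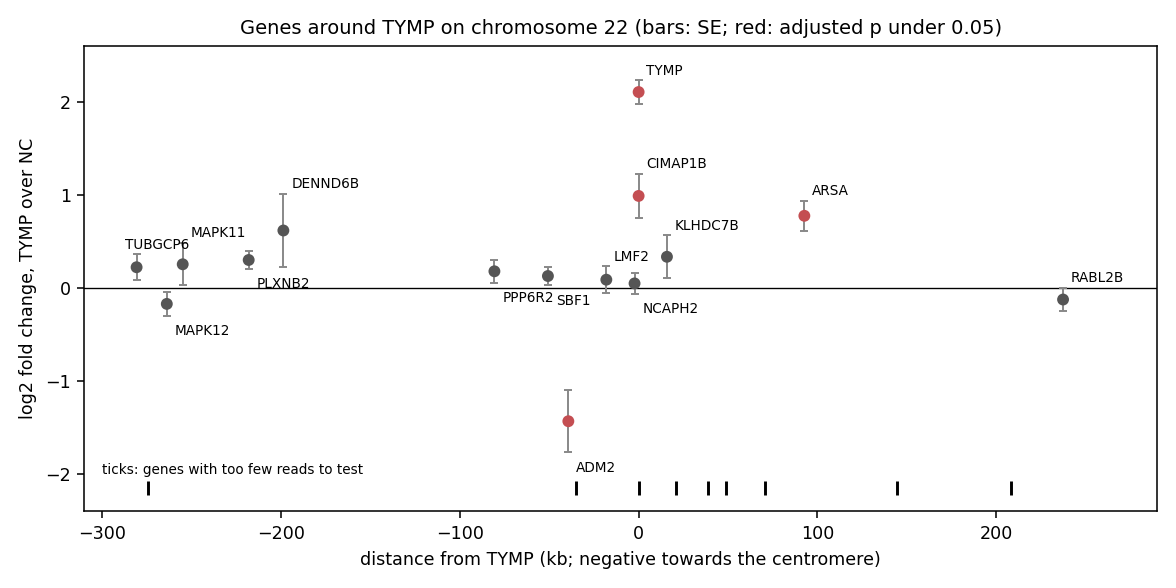
Log2 fold change (with SE bars) of 15 tested genes of the TYMP neighbourhood on chromosome 22 against distance from TYMP in kb; red marks genes at an adjusted p under 0.05, and ticks at the bottom mark 9 genes with too few reads. CIMAP1B (0.99), which overlaps TYMP (2.10), and ARSA (0.78) are higher, the tested genes wholly between TYMP and ARSA are not called, and ADM2 (-1.43) on the other side is lower.

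Other genes of the lysosome, and genes of sorting, nutrient sensing, autophagy and cystatins, were read from 7 lists. The lists held 150 genes, of which 127 were tested. Over these lists 2 genes were called higher and 0 lower by edgeR, 13 passed an unadjusted p under 0.05, and the median log2 fold change was 0.00. Over all tested genes 2.09% were called higher and 14.7% passed an unadjusted p under 0.05, so neither count stands above the background. Both calls were in the list of 23 tested lysosomal enzymes outside the 38, whose median was 0.12 and in which 19 log2 fold changes were above 0. SCPEP1, a serine carboxypeptidase related to cathepsin A, had 663 and 649 reads against 1024 and 1001. It rose 1.56-fold, 39.3 ± 0.187 against 61.3 ± 3.25 CPM (SD over 2 libraries each; edgeR adjusted p = 0.00402), and stayed called in every alternative run. CTSS encodes cathepsin S, a cysteine protease that trims the invariant chain of MHC class II. It had 134 and 131 reads against 185 and 262 and rose 1.70-fold (edgeR adjusted p = 0.0409). CTSS was not called by DESeq2 (adjusted p = 0.0563) or limma-voom (0.0513). Nor was it called by limma on FPKM with a pseudocount of 1 (0.195) or 0.1 (0.192). It also lost its call without TYMP replicate 2 (log2 fold change 0.53).

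The remaining 6 lists held no call by edgeR, where 3.32% of all tested genes were called. Of the 18 tested subunits of the V-ATPase, the proton pump that acidifies the lysosome, 0 were called and 0 passed an unadjusted p under 0.05, with a median log2 fold change of -0.02. The smallest p values belonged to ATP6V0A2 (log2 fold change -0.15, adjusted p = 0.617) and ATP6V1C2 (adjusted p = 0.648). Of 24 tested membrane proteins outside the 38, 0 were called and 3 passed an unadjusted p under 0.05. The smallest p belonged to LAMP3, a membrane protein induced in some immune cells, at 1.55-fold (adjusted p = 0.177), followed by the peptide transporter SLC15A3 (log2 fold change 0.44, adjusted p = 0.293). Of 18 genes for mannose 6-phosphate tagging and sorting, 0 were called and 1 passed an unadjusted p under 0.05: the sorting receptor SORL1, with a log2 fold change of 0.22 (adjusted p = 0.176). Of 23 autophagy genes, 0 were called, 4 passed an unadjusted p under 0.05 and the median was 0.00. The autophagy receptor OPTN was higher (log2 fold change 0.23, adjusted p = 0.182). The other 3 of these 4 were lower: MAP1LC3B, a protein anchored in the autophagosome membrane (-0.22, adjusted p = 0.275), ATG7 (-0.29, adjusted p = 0.327) and ATG3 (-0.19, adjusted p = 0.340).

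Among 18 tested genes of the MiT/TFE family and lysosomal nutrient sensing, 0 were called by edgeR, 2 passed an unadjusted p under 0.05 and the median log2 fold change was -0.09. MITF, a relative of TFEB, had 288 and 403 reads against 229 and 231 (log2 fold change -0.58 ± 0.171 SE, adjusted p = 0.104). TFE3 had 0 reads in every library and was not detectable in these counts. The same held for the sialidase gene NEU1, which also has a copy outside the primary assembly. RRAGD, VPS11 and ATG16L1 also had 0 reads in every library, VPS11 and ATG16L1 with such a copy. The V-ATPase gene ATP6V0C had at most 3 reads in any library. Whether reads of such genes were lost in alignment or counting was not tested. Of the cystatins, which inhibit cysteine cathepsins, 3 were tested and 0 called. CSTA, a cystatin of the cornified envelope, had a log2 fold change of 0.30 (adjusted p = 0.176).

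**Figure D5:**
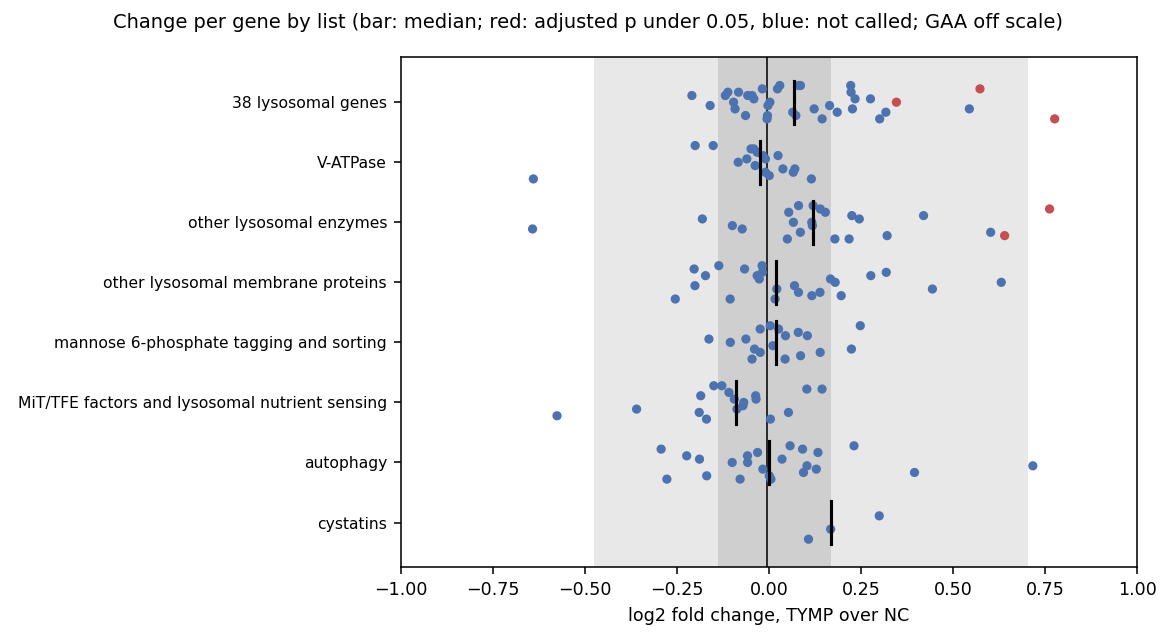
Log2 fold change of each tested gene in the 38 lysosomal genes and 7 related lists (GAA is off the scale); black bars are medians, red points passed an adjusted p under 0.05, and the grey bands hold the middle 50% and 90% of all 14380 tested genes. The medians run from -0.09 for nutrient sensing to 0.17 for the cystatins, and 2 red points lie outside the 38 genes.

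Summed per length, the 38 genes came to 722 and 695 FPKM with NC, 793 and 769 with TYMP. The sum was 708 ± 19.3 in NC and 781 ± 16.8 in TYMP (SD, n = 2 per group), a ratio of 1.10, and PSAP supplied the largest part of the difference. An exact permutation of 2 libraries against 2 cannot go below p = 0.333, so no p is given for this sum.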

How the data were processed

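PolyA RNA from HaCaT cells was sequenced in 2 NC and 2 TYMP libraries. The authors deposited read counts and FPKM per gene, and the submitters' processing notes list HISAT2, HTSeq 0.13.5 and GRCh38 but give no order of use. Strand handling and the assignment of shared reads are not stated, so overlapping and antisense genes are uncertain. Counts were tested with edgeR 4.0.16 (R 4.3.3): filterByExpr, TMM scaling, robust quasi-likelihood F test on group alone, Benjamini-Hochberg adjustment over 14380 genes, called at 0.05. The deposited FPKM served for levels per gene length and, as log2(FPKM + pseudocount) in limma 3.58.1, as an alternative. DESeq2 1.42.0, limma-voom, other scalings and filters, a replicate block and leaving out each library were also run. The script was tested on simulated data. It missed part of the changes put in, more often small ones, and the share of false calls exceeded the adjusted p threshold of 0.05.

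The labels name no separate cultures for the libraries of a group; p-values then reflect sample-to-sample spread alone, which may be technical. Intervals on counts cover counting error only. In each other list the genes named were those called or, with none called, up to 2 of smallest p, plus genes around TYMP. SUMF1, TFE3, NEU1, RRAGD, VPS11, ATG16L1, ATP6V0C, ATG7, ATG3, the GAA neighbours and marker genes were named outside this rule, with their values known. Members and lists were chosen with earlier results of these data known. Coordinates and exon overlaps are from GENCODE 29 on GRCh38.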

Additional observations from a re-analysis of the deposited data

How the results depend on the processing

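Called members numbered 3 to 5 higher and 0 lower under DESeq2, limma-voom, other scalings, other filters and with TYMP or GAA left out. On FPKM 0 were called with a pseudocount of 1 or 0.1, where ARSA had log2 fold changes of 0.557 (adjusted p = 0.0575) and 0.761 (0.0572), and the members' median with 0.1 was 0.0965. Leaving out each library in turn gave 1 to 6 higher, a median of 0.0394 to 0.117, ARSA at 0.714 to 0.837 (adjusted p = 0.00491 to 0.0903) and a summed FPKM ratio of 1.08 to 1.12. The replicate numbers in the labels are shared only as numbers (correlation of deviations 0.186, from 2 pairs). With them as a replicate block, 9 members were called higher and 1 lower (CTSZ), among 2024 genes called in all (14.1%), and ARSA had an adjusted p of 0.00177. The cause of these differences was not tested. Low counts limit GAA, IDUA and GALC. The members' median and the log2 fold changes of ARSA, CTSB, CTSD, CTSH, GAA, GM2A, PSAP, TFEB, CTSS, SCPEP1, CIMAP1B and ADM2 kept their sign in every alternative that gave a value, and other genes and lists were not rerun. The median over all tested genes ran from -0.00837 to 0.0191 over the alternatives, and was above 0 with upper quartile scaling, library size only, no filter, FPKM and without either NC library. Leaving GAA out and the GENCODE 29 lengths (summed FPKM ratio 1.10) were added after seeing the data.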
